A study of Danio rerio with 30 samples.

Results

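The interferon response genes of sorted zebrafish cells labelled as stem and progenitor cells were followed across genotype, haemolytic stress and imiquimod. The set held 8 of the 20631 genes in the deposited count table, found by matching the zebrafish symbols isg15, rsad2, mxa, stat2, irf1b, irf7, irf9 and rnf213a to the symbols given for the table's identifiers. Capital and small letters were treated alike, and a symbol without its final paralogue letter also matched. They were isg15 (ENSDARG00000086374), RSAD2 (ENSDARG00000004952), mxa (ENSDARG00000021688), stat2 (ENSDARG00000031647), irf1b (ENSDARG00000043249), IRF7 (ENSDARG00000045661), irf9 (ENSDARG00000016457) and RNF213 (ENSDARG00000099465).

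Libraries came from the GFP-low cells of Tg(itga2b:GFP) zebrafish at 6 days post fertilization, a line in which the promoter of the platelet integrin gene itga2b drives GFP and whose weakly green cells are labelled as stem and progenitor cells. Embryos were heterozygous for rps14 (rps14+/-), a gene for a component of the ribosome's small subunit, or wild type. Stressed embryos had been kept in 1 µg/mL phenylhydrazine (Phz), which lyses erythrocytes, between 24 and 48 hours after fertilization, and the others are called unstressed. All then spent 4 days either in imiquimod at 20 µM, which activates TLR7, or in the solvent DMSO. The rps14+/- groups held 4 Phz imiquimod, 5 Phz DMSO, 3 unstressed imiquimod and 4 unstressed DMSO libraries. Wild-type groups held 4 Phz imiquimod, 3 Phz DMSO, 4 unstressed imiquimod and 3 unstressed DMSO libraries, so each treatment had 15 libraries. Every library carried the GFP transgene, and embryos were pooled by genotype, stress and treatment before sorting. The labels number the replicates of a group without saying whether each number is a separate pool, so the p-values here rest on a spread between libraries that may be partly technical.

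Interferons are secreted when receptors such as TLR7 sense foreign nucleic acid, a step that uses the transcription factor IRF7. They bind receptors whose kinases phosphorylate STAT2, which acts with IRF9 to switch on a broad set of antiviral genes, among them ISG15, RSAD2, the Mx genes and IRF genes themselves. In blood stem cells of mice, interferon is known to drive quiescent cells into division.

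Total counts per library ranged from 5703056 to 15238153 with a median of 6894464. RPS14, the mutated gene, checked the labels: its level was 100 to 346 CPM (counts scaled to a total of 1000000 per library) in the 16 rps14+/- libraries, against 347 to 672 CPM in the 14 wild-type libraries. TLR7, the gene of the receptor that imiquimod engages, averaged 0.763 CPM and had no count in 16 of the 30 libraries. Of the defining markers, itga2b was detected in every library at 0.269 to 34.2 CPM and the progenitor gene MYB at 406 to 1162 CPM. The neutrophil gene lyz was at 3800 to 25624 CPM and the macrophage gene MPEG1 (ENSDARG00000055290) at 35.0 to 267 CPM. A second MPEG1 row averaged 1.78 CPM and had no count in 6 libraries. Of the endothelial genes, kdrl had no count in 11 libraries and cdh5 none in 8, while KDR had none in 1 and reached 27.5 CPM. Together the 12 endothelial markers summed to 68.4 to 213 CPM. In pooled cells of this kind, fewer cells of a type and less RNA per cell cannot be told apart. The libraries named S1 to S6 in the labels, 1 in each of 6 groups and none in a Phz DMSO group, stood apart for some members. For IRF7 the medians were 23.5 CPM in S1 to S6 and 54.1 CPM in the others, and the labels do not call S1 to S6 a batch.

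The 8 genes differed in how many libraries detected them. RNF213, IRF7, irf9, stat2 and irf1b had counts in all 30 libraries. isg15 had none in 2 libraries, mxa none in 16 and RSAD2 none in 19. Levels are shares of each library's counts and are not corrected for gene length, so they are compared between libraries and not between genes. RNF213 varied least, with an SD over all libraries of 39.5% of its mean. For isg15 the SD was 113% of the mean, for mxa 172% and for RSAD2 356%.

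**Figure D1:**
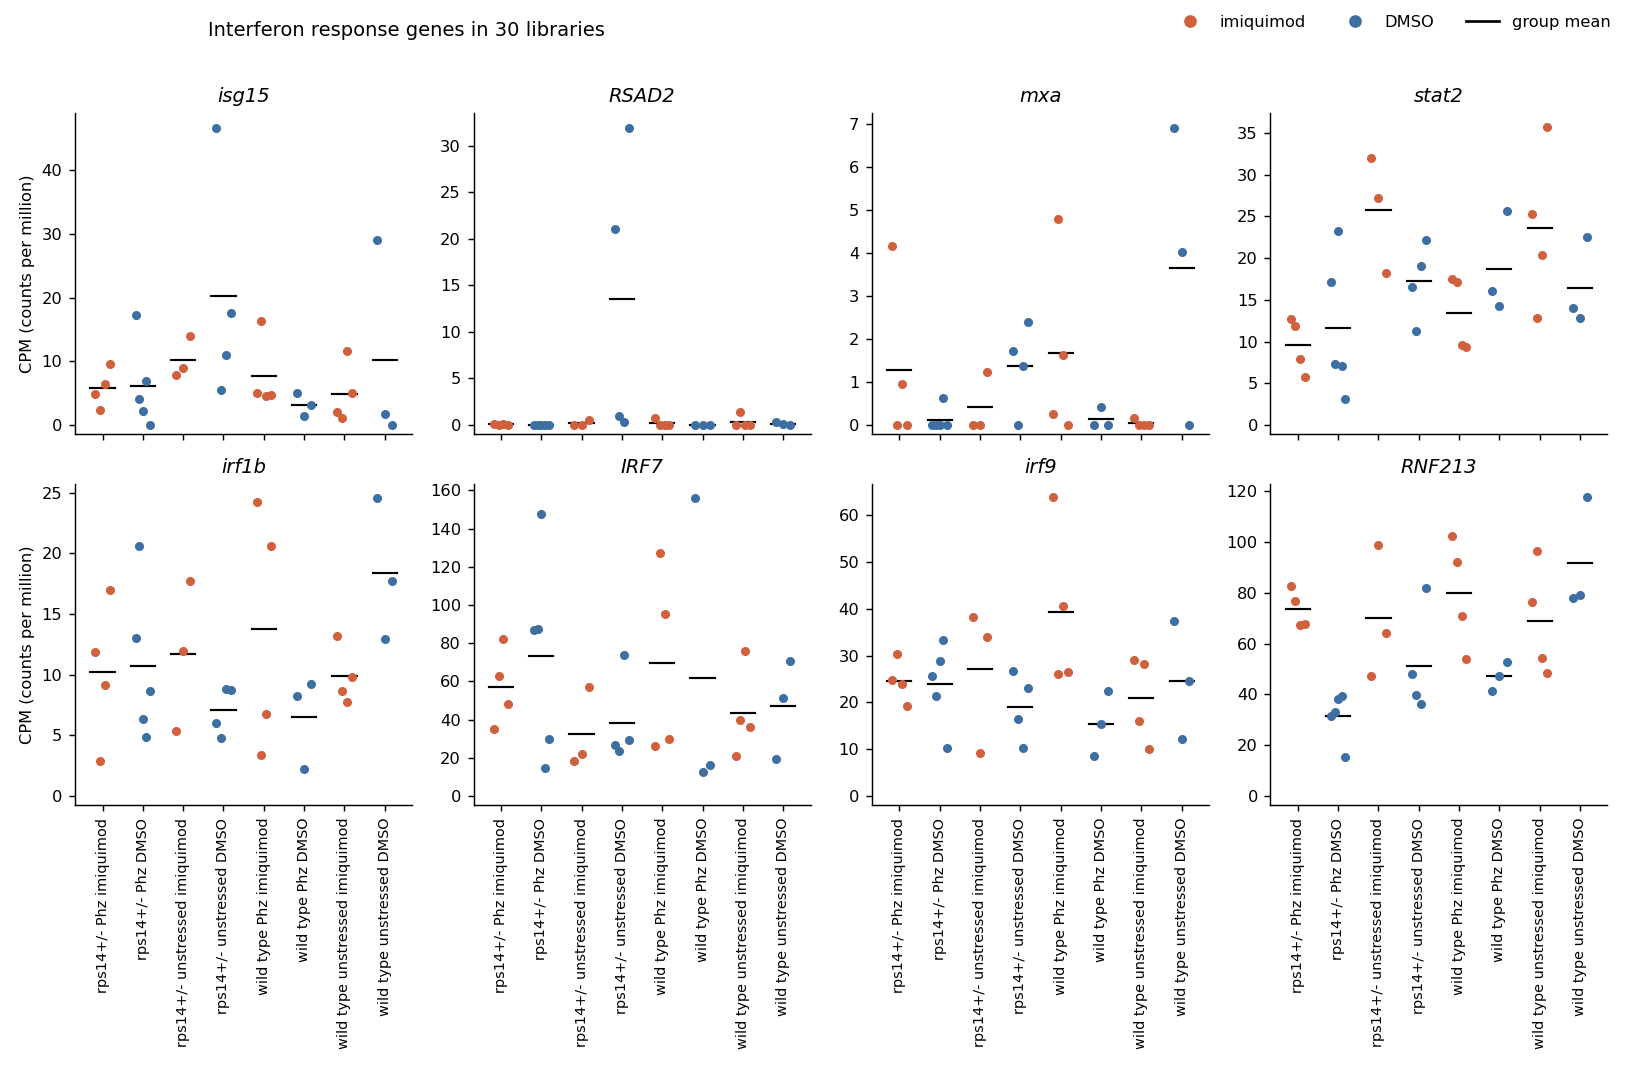
Level of each of the 8 interferon response genes in CPM (linear axis, own scale per panel) in the 8 groups; each point is 1 library (orange, imiquimod; blue, DMSO) and the line is the group mean. RNF213 in Phz-stressed cells is separated by treatment in both genotypes. The high points of RSAD2, 21.02 and 31.9 CPM, are libraries of the rps14+/- unstressed DMSO group. Those of isg15 and mxa lie in a few libraries of more than 1 group.

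No member passed the test for imiquimod. Averaged over genotype and stress, edgeR called 0 of the 7 members that passed the low-count filter at an adjusted p under 0.05, and 1 of all 19930 genes tested (0.00502%). DESeq2 and limma voom likewise called 0 members in this comparison. At an unadjusted p under 0.05 there was 1 member, RNF213, and 8.98% of all genes tested. RSAD2 did not pass the filter and has no test. The median log2 fold change of the 7 members was 0.06, with 4 above 0, beside a median of 0.06 over all genes tested, of which 57.3% were above 0.

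The transcription factors of the pathway showed small differences with wide errors. For stat2, a signal transducer of the type I response, the log2 fold change for imiquimod over DMSO averaged over all conditions was 0.06 ± 0.25 (SE; 15 against 15 libraries; edgeR adjusted p = 0.99). For irf9, the DNA-binding subunit of the complex that stat2 joins, the value was 0.39 ± 0.24 with an edgeR adjusted p of 0.69. irf1b, one of the zebrafish copies of the interferon-gamma target IRF1, gave 0.18 ± 0.32, and IRF7, which drives interferon genes downstream of toll-like receptors, −0.17 ± 0.40. isg15, a ubiquitin-like protein attached to targets during the antiviral response, gave −0.23 ± 0.55. RNF213, a large ubiquitin ligase and ATPase that human and mouse cells induce with interferon, gave 0.48 ± 0.16, the smallest p of the members (unadjusted p = 0.0042, edgeR adjusted p = 0.30). The signs for isg15, stat2 and IRF7 turned under at least 1 other setting.

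Within the single conditions edgeR also called 0 of 7 members and 0% of all genes tested, and DESeq2 and limma voom called 0 members. At an unadjusted p under 0.05, stressed rps14+/- cells held RNF213 (4.31% of all genes tested) and stressed wild-type cells held irf9 and RNF213 (9.12%). Unstressed rps14+/- cells held no member (4.4%) and unstressed wild-type cells held mxa (7.06%).

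RNF213 separated by treatment in the Phz-stressed cells of both genotypes. In rps14+/- Phz cells its level was 82.5, 76.9, 67.3 and 67.8 CPM in the imiquimod libraries, against 31.4, 33.1, 38.1, 39.3 and 15.3 CPM in the DMSO libraries. Wild-type Phz cells had 102, 92.1, 70.8 and 53.9 CPM with imiquimod, against 41.2, 47.4 and 52.8 CPM with DMSO. Each of the 8 stressed imiquimod libraries was thus above each of the 8 stressed DMSO libraries. Among all genes tested, 0.0552% were higher with no overlap in this 8 against 8 comparison, and 0.1% were so within both genotypes. The separation was the same after TMM scaling, at 55.5 to 104 CPM with imiquimod and 14.4 to 54.3 CPM with DMSO.

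Without stress the RNF213 libraries overlapped. The rps14+/- cells had 47.3, 98.9 and 64.3 CPM with imiquimod, against 48.0, 39.6, 36.1 and 81.7 CPM with DMSO. In unstressed wild-type cells the level was 76.2, 96.4, 54.3 and 48.4 CPM with imiquimod, against 78.0, 78.9 and 118 CPM with DMSO. The wild-type DMSO mean of 91.5 ± 22.6 CPM (SD, n = 3) was the highest of the 8 groups and the rps14+/- Phz DMSO mean of 31.5 ± 9.60 CPM (SD, n = 5) the lowest. The remaining means, from high to low, were 79.8 ± 21.7 CPM in wild-type Phz imiquimod, 73.6 ± 7.39 CPM in rps14+/- Phz imiquimod, 70.2 ± 26.3 CPM in rps14+/- unstressed imiquimod and 68.8 ± 21.9 CPM in wild-type unstressed imiquimod libraries. Below these stood 51.4 ± 20.8 CPM in rps14+/- unstressed DMSO and 47.2 ± 5.82 CPM in wild-type Phz DMSO libraries (SD, n = 3 or 4 each). Of the 7 steps between neighbours in this order, only that between the lowest groups exceeded the larger of the neighbours' SDs. Ordered neighbours lie close by construction, so this does not tell whether groups farther apart differ.

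**Figure D2:**
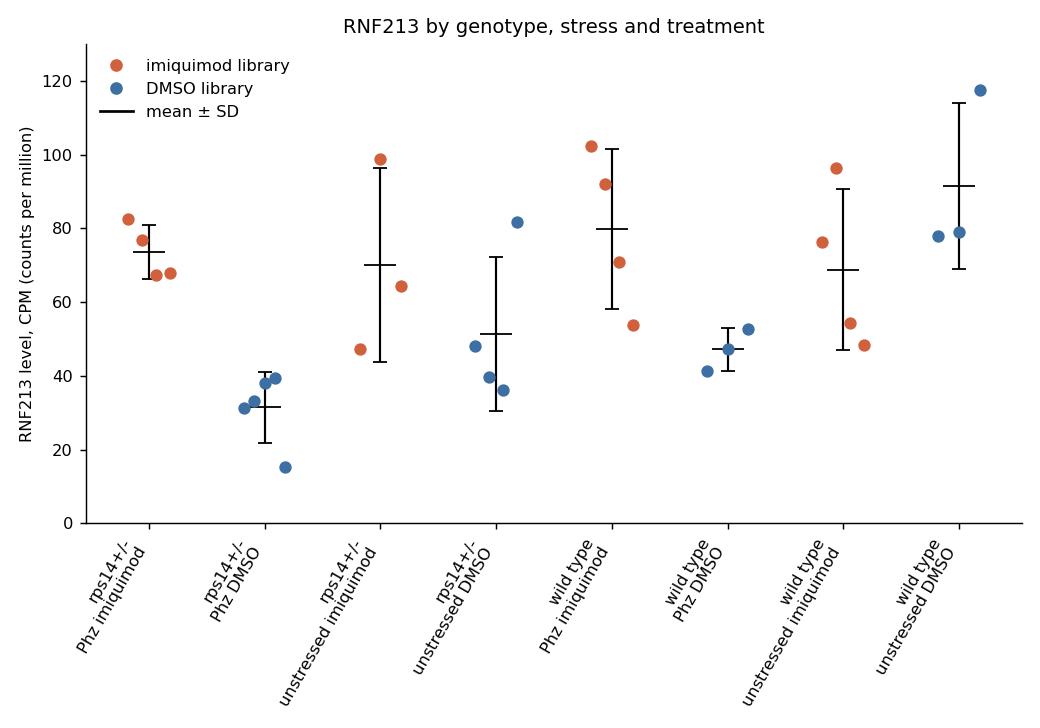
RNF213 level in CPM (linear axis from 0) in every library of the 8 groups, with the mean and SD of each group in black (orange, imiquimod; blue, DMSO). The 8 Phz imiquimod libraries lie between 53.9 and 102 CPM and the 8 Phz DMSO libraries between 15.3 and 52.8 CPM, while the unstressed groups overlap.

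The tests of RNF213 placed these differences short of the threshold in edgeR. In rps14+/- Phz cells the log2 fold change for imiquimod was 1.2 ± 0.28 (SE; unadjusted p = 0.000167, edgeR adjusted p = 1), which ranked 3 by p among all genes tested. In wild-type Phz cells it was 0.76 ± 0.33 (edgeR adjusted p = 0.53). Averaged over genotype within Phz cells, a comparison added after the values were seen, it was 0.98 ± 0.22 (edgeR adjusted p = 0.20), and RNF213 ranked 7. DESeq2 gave 0.98 ± 0.22 with an adjusted p of 0.0049 and so called it, as it did 0.637% of the genes to which it gave an adjusted p. For limma voom the adjusted p was 0.060, and leaving out single libraries in edgeR gave adjusted p-values from 0.12 to 0.63. In this comparison edgeR called 0 of 7 members, and 1 of all genes tested (0.00502%). Unstressed cells gave 0.44 ± 0.32 in rps14+/- (edgeR adjusted p = 1) and −0.48 ± 0.32 in wild type (edgeR adjusted p = 0.87).

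Whether the RNF213 response differed between conditions was tested as an interaction. The imiquimod effect in Phz cells minus that in unstressed cells, averaged over genotype, was 1.00 ± 0.31 on the log2 scale (unadjusted p = 0.0031, edgeR adjusted p = 0.34), where 7 of all genes tested were called (0.0351%; 0.0151% higher and 0.0201% lower). The effect in rps14+/- minus that in wild-type cells, averaged over stress, was 0.68 ± 0.31 (edgeR adjusted p = 0.83). Neither difference passed, and no other member passed either interaction. At an unadjusted p under 0.05 the stress interaction held RNF213 and mxa, beside 8.85% of all genes tested, and the genotype interaction held RNF213, beside 5.91%.

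Among DMSO libraries the mean RNF213 level lay lower in rps14+/- and in Phz-stressed cells, again without a call. Averaged over stress and treatment, and so over imiquimod libraries too, rps14+/- over wild type gave −0.48 ± 0.16 (edgeR adjusted p = 0.24). That comparison called 0 of 7 members and 0.437% of all genes tested (0.0753% higher and 0.361% lower). With imiquimod the rps14+/- and wild-type means were 70.2 and 68.8 CPM without stress, and 73.6 and 79.8 CPM with Phz. In unstressed DMSO libraries the rps14+/- values of 36.1 to 81.7 CPM overlapped the wild-type values of 78.0 to 118 CPM. In Phz DMSO libraries every rps14+/- value was below every wild-type value, as for 1.37% of all genes tested. In wild-type DMSO libraries the Phz values of 41.2 to 52.8 CPM all lay below the unstressed values of 78.0 to 118 CPM, as for 5.51% of all genes tested (log2 fold change −0.99 ± 0.35, edgeR adjusted p = 0.44). In rps14+/- DMSO libraries the Phz values of 15.3 to 39.3 CPM overlapped the unstressed values of 36.1 to 81.7 CPM. The Phz DMSO libraries are also the comparison group of the imiquimod contrasts above, so these values share libraries.

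The row RNF213 was matched to rnf213a by its symbol without the paralogue letter, and the table does not say which copy it is. A second row under the symbol rnf213b was measured separately. Its level averaged 2.21 ± 1.91 CPM in the imiquimod libraries and 4.73 ± 7.04 CPM in the DMSO libraries (SD, n = 15 each), with a log2 fold change of −0.93 ± 0.78 (edgeR adjusted p = 0.82). Reads of near-identical copies can be split between the rows, and how the counting treated them was not given in the sources used here.

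Values of other cells' markers and of depth in the stressed libraries stood as follows beside RNF213. The summed level of 28 macrophage markers was 2027 to 2891 CPM (median 2376) in Phz imiquimod libraries and 1188 to 2990 CPM (median 1797) in Phz DMSO libraries. Within wild type these sums were 2027 to 2891 CPM with imiquimod and 1432 to 1944 CPM with DMSO, without overlap. Within rps14+/- they overlapped, at 2050 to 2763 CPM with imiquimod and 1188 to 2990 CPM with DMSO. Of the 28, 23 were above 0 in fold change, a count not set against the share over all genes tested or the other marker lists. At an unadjusted p under 0.05, 6 were higher and 1 lower, beside 9.48% of all genes tested in Phz cells averaged over genotype. The macrophage gene MPEG1 (ENSDARG00000055290) was at 63.6 to 145 CPM with imiquimod and 35.0 to 134 CPM with DMSO. No library lacked that row, while the second MPEG1 row was at 0.252 to 7.88 CPM with imiquimod and 0 to 4.02 CPM with DMSO. For 12 neutrophil markers the sums were 8350 to 19403 CPM with imiquimod and 7876 to 22591 CPM with DMSO. The 12 endothelial markers summed to 68.4 to 165 CPM with imiquimod and 124 to 213 CPM with DMSO, and 17 exocrine pancreas markers to 609 to 1683 CPM with imiquimod and 428 to 8530 CPM with DMSO. Within wild type the endothelial sums were 68.4 to 109 CPM with imiquimod and 142 to 213 CPM with DMSO, without overlap. Within rps14+/- they overlapped, at 110 to 165 CPM with imiquimod and 124 to 178 CPM with DMSO. The sums of the lymphoid, erythroid, thrombocyte and progenitor markers overlapped between treatments in each genotype. Total counts were 6877888 to 15238153 with imiquimod and 6110127 to 8682242 with DMSO. The part of these markers in the RNF213 difference was not tested. The median RNF213 level was 77.1 CPM in S1 to S6 and 54.1 CPM in the others, which include all Phz DMSO libraries. Within unstressed rps14+/- groups, S1 to S6 had 47.3 against a mean of 81.6 CPM in the others with imiquimod, and 48.0 against 52.5 CPM with DMSO. Unstressed wild type had 76.2 against 66.4 CPM with imiquimod and 78.0 against 98.3 CPM with DMSO. With Phz and imiquimod it was 82.5 against 70.7 CPM in rps14+/- and 102 against 72.3 CPM in wild type. Without S1 to S6, the Phz difference averaged over genotype was 0.89 (edgeR adjusted p = 0.33).

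irf9 separated by treatment in stressed wild-type cells without passing the test. It stood at 63.8, 26.2, 40.5 and 26.5 CPM with imiquimod, against 8.61, 15.5 and 22.3 CPM with DMSO. With RNF213 it made 2 members that were higher with no overlap in that comparison, beside 4.08% of all genes tested. edgeR gave irf9 a log2 fold change of 1.35 ± 0.51 (adjusted p = 0.53), so it was not called.

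In stressed rps14+/- cells irf9 overlapped between treatments. Its values were 24.7, 30.2, 23.8 and 19.2 CPM with imiquimod, against 25.7, 21.3, 28.9, 33.3 and 10.3 CPM with DMSO (0.01 ± 0.43, edgeR adjusted p = 1). RNF213 was the 1 member without overlap there, beside 1.48% of all genes tested. Averaged over genotype within Phz cells, irf9 gave 0.68 ± 0.33 (edgeR adjusted p = 0.51). Its genotype interaction, averaged over stress, was −0.26 ± 0.48 (edgeR adjusted p = 1) and its stress interaction, averaged over genotype, 0.58 ± 0.48 (edgeR adjusted p = 0.81). The first average combines opposite differences. The rps14+/- and wild-type fold changes were 0.01 and 1.35 in Phz cells, but 0.51 and −0.31 in unstressed cells. In the genotype interaction within Phz cells alone, irf9 ranked 1113 by p among all genes tested, and edgeR called 0 genes.

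Without stress irf9 overlapped between treatments in both genotypes. It averaged 27.2 ± 15.7 CPM in rps14+/- imiquimod and 19.1 ± 7.29 CPM in rps14+/- DMSO libraries, and 20.8 ± 9.37 CPM in wild-type imiquimod and 24.7 ± 12.6 CPM in wild-type DMSO libraries (SD, n = 3 or 4). irf9 also ran higher in S1 to S6, with a median of 33.2 CPM against 22.7 CPM in the others, and the highest irf9 value of all, 63.8 CPM, is in that set.

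**Figure D3:**
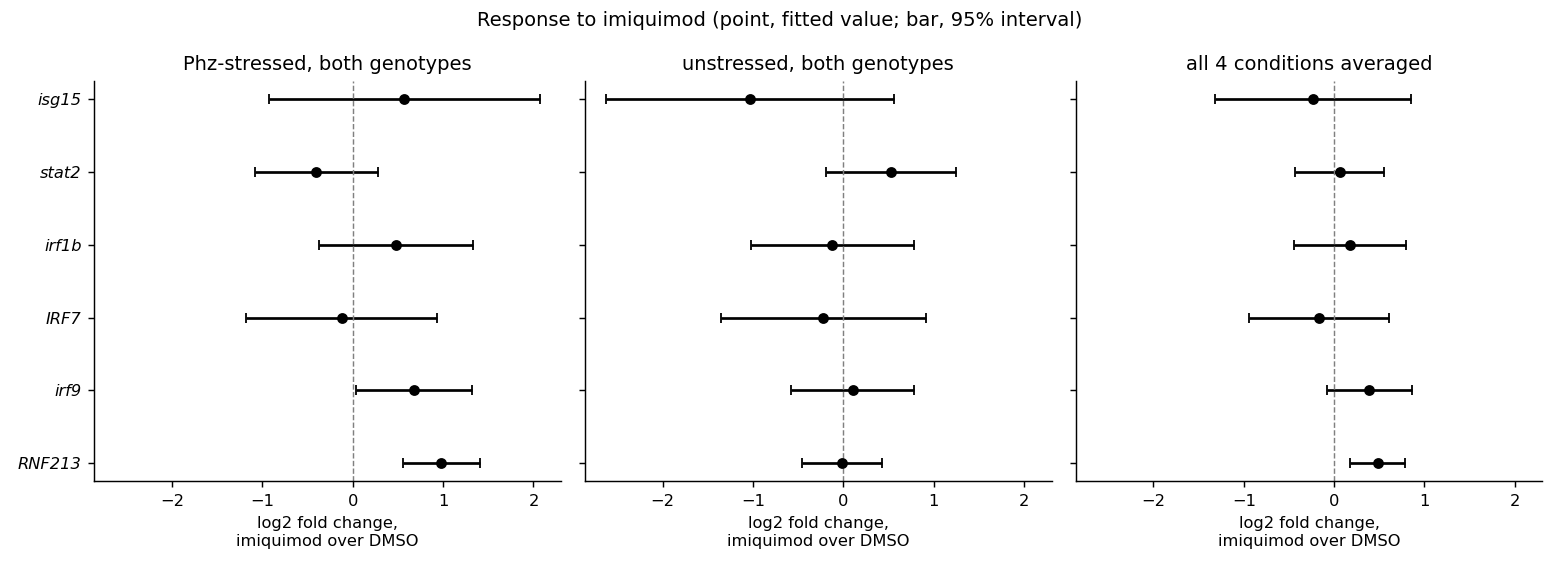
Log2 fold change of imiquimod over DMSO (x axis; points, fitted values; bars, 95% intervals) for 6 members in Phz-stressed cells averaged over genotype, in unstressed cells averaged over genotype and over all conditions. RNF213 is at 0.98 in Phz-stressed cells and −0.02 in unstressed cells, and no member has an edgeR adjusted p under 0.05 in any of the 3 panels.

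The other regulators showed wide spreads in every group. stat2 had 5.77 to 12.7 CPM in rps14+/- Phz imiquimod and 3.13 to 23.3 CPM in rps14+/- Phz DMSO libraries, and 9.34 to 17.6 CPM in wild-type Phz imiquimod and 14.2 to 25.7 CPM in wild-type Phz DMSO libraries. Without stress it had 18.2 to 32.05 CPM in rps14+/- imiquimod and 11.3 to 22.2 CPM in rps14+/- DMSO libraries, and 12.8 to 35.8 CPM in wild-type imiquimod and 12.8 to 22.5 CPM in wild-type DMSO libraries. The treatments overlapped in all 4 conditions. Its log2 fold change for imiquimod was −0.40 ± 0.35 within Phz cells (edgeR adjusted p = 0.79) and 0.52 ± 0.37 within unstressed cells (edgeR adjusted p = 0.87). The difference between them, averaged over genotype, was −0.92 ± 0.50 and did not pass (edgeR adjusted p = 0.62). Over all groups, stat2 was the 1 member with an unadjusted p under 0.05 for Phz over unstressed, at −0.63 ± 0.25 (edgeR adjusted p = 0.29), in a comparison that called 0 of 7 members and 0.0201% of all genes tested, and held 12.4% at an unadjusted p under 0.05.

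IRF7 reached its extremes in stressed cells. Wild-type Phz libraries had 26.1, 127, 95.2 and 30.1 CPM with imiquimod, against 156, 12.7 and 16.3 CPM with DMSO. In rps14+/- Phz cells it was at 35.1, 62.7, 82.2 and 48.0 CPM with imiquimod, against 86.9, 87.2, 148, 14.6 and 30.1 CPM with DMSO. These ranges overlapped throughout, and leaving out the wild-type Phz DMSO library at 156 CPM moved the fold change in Phz cells to 0.94, against −0.12 ± 0.54 with it (edgeR adjusted p = 0.99).

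irf1b separated by genotype among unstressed DMSO libraries. It had 5.99, 4.77, 8.81 and 8.78 CPM in rps14+/- libraries, against 24.6, 12.9 and 17.7 CPM in wild-type libraries, with no overlap, as for 1.86% of all genes tested. The log2 fold change of −1.52 ± 0.65 was not called (edgeR adjusted p = 0.57), and the comparison called 0 of 7 members and 0.00502% of all genes. In Phz DMSO libraries the means went the other way, at 10.7 CPM (4.84 to 20.6) in rps14+/- and 6.55 CPM (2.21 to 9.23) in wild type, with overlap. In wild-type DMSO libraries the Phz values of 8.22, 2.21 and 9.23 CPM were also all below the unstressed ones, as for 5.51% of all genes tested (log2 fold change −1.50 ± 0.71, edgeR adjusted p = 0.45). Both separations rest on the same wild-type unstressed DMSO libraries.

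Among the effector genes, isg15 had its highest single values in unstressed DMSO libraries. In unstressed rps14+/- cells it was at 7.89, 8.89 and 14 CPM with imiquimod, against 46.7, 5.50, 11.05 and 17.6 CPM with DMSO. In unstressed wild-type cells it was at 2.05, 1.04, 11.59 and 5.08 CPM with imiquimod, against 29.03, 1.75 and 0 CPM with DMSO. Both top values, 46.7 and 29.03 CPM, are libraries of S1 to S6, and the treatments overlapped. In Phz cells it was at 2.33 to 9.65 CPM with imiquimod and 0 to 17.3 CPM with DMSO in rps14+/-, and at 4.47 to 16.3 CPM with imiquimod and 1.38 to 5.09 CPM with DMSO in wild type (both genotypes together 0.57 ± 0.77, edgeR adjusted p = 0.91).

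RSAD2, whose product viperin blocks viral replication, was at 1.38 CPM or less outside 1 group. In unstressed rps14+/- cells it was at 0, 0 and 0.526 CPM with imiquimod, against 21.02, 1.01, 0.345 and 31.9 CPM with DMSO. Unstressed wild-type cells had 0, 1.38, 0 and 0 CPM with imiquimod, against 0.307, 0.134 and 0 CPM with DMSO. The lower 2 rps14+/- DMSO values rest on 7 and 2 reads and the wild-type DMSO values on 2, 1 and 0 reads. The 8 Phz imiquimod libraries had at most 0.752 CPM, and all 8 Phz DMSO libraries had no count. The high values of 21.02 and 31.9 CPM stand beside 1.01 and 0.345 CPM in the same group, and no test was made of this gene.

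mxa, a dynamin-like antiviral GTPase, was detected in 14 libraries at no more than 6.91 CPM. Without stress it was at 0, 0 and 1.23 CPM in rps14+/- imiquimod, against 1.71, 0, 1.38 and 2.39 CPM in rps14+/- DMSO libraries. In wild type it was at 0.171, 0, 0 and 0 CPM with imiquimod, against 6.91, 4.03 and 0 CPM with DMSO. In Phz cells the highest values were those with imiquimod. There it was at 4.16, 0, 0.949 and 0 CPM in rps14+/- and 0.251, 4.78, 1.63 and 0 CPM in wild-type imiquimod libraries, against 0.636 CPM or less in all 8 DMSO libraries. The stress interaction of mxa had an unadjusted p of 0.0025 and an edgeR adjusted p of 0.34, and a fold change is not given for counts this low.

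When the 8 group means of each of the 8 members were put in order, only 1 of the 7 steps between neighbours for irf1b and 1 of 7 for RNF213 exceeded the larger SD of the neighbours. Ordering makes neighbouring means lie close, and the SD is the spread between libraries. These counts therefore do not tell whether groups farther apart in the order differ.

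No pair of members passed a test for varying together from library to library. Deviations from the group means of log2(CPM + 1) were compared for all 28 pairs of members over the 30 libraries. The median Pearson r was 0.095, 20 pairs were positive, and 0 pairs passed a permutation test after Benjamini-Hochberg adjustment. The highest r was that of isg15 with mxa, at r = 0.49 and Spearman rho = 0.36 (permutation p = 0.032 and 0.091, adjusted p = 0.45 and 0.49). Without the 2 libraries farthest out for isg15 r was 0.44. The smallest permutation p was that of RSAD2 with RNF213, at r = 0.47 and rho = 0.41 (permutation p = 0.0165 and 0.0676, adjusted p = 0.45 and 0.49). Without the 2 libraries farthest out for RSAD2 its r was 0.26.

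**Figure D4:**
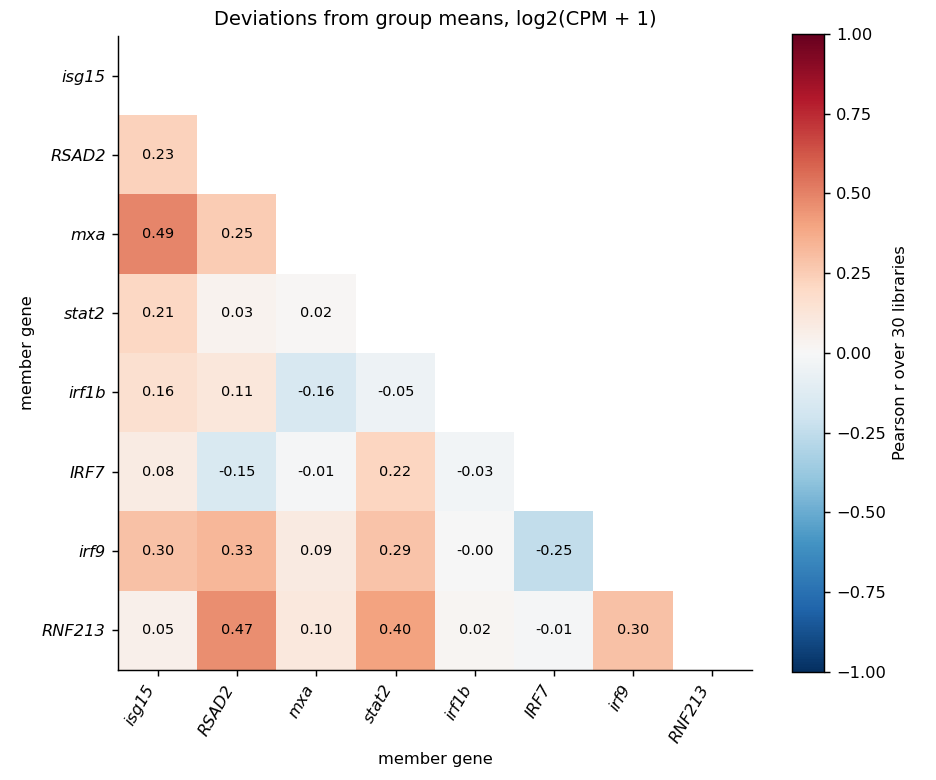
Pearson r between members over 30 libraries, computed on deviations of log2(CPM + 1) from the 8 group means, with members on both axes and the colour scale giving r. The highest value is 0.49 for isg15 with mxa, and the median over the 28 pairs is 0.095.

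Genes outside the set with the pattern most like the members' mean were found among 11012 genes with a symbol and at least 5 CPM on average. The measure was Pearson r over the 30 libraries between log2(CPM + 1) and the mean of the 8 members' standardised values. The 8 highest were gch2 (r = 0.73), si:ch73-322b17.3 (0.73), xaf1 (0.70), NRP1 (0.70), zgc:162730 (0.67), krt18b (0.67), tifa (0.66) and galk1 (0.66). For deviations from the group means they were zfand5a (0.71), MTFR1L (0.70), zgc:162730 (0.70), si:ch73-322b17.3 (0.69), LRCH3 (0.69), PAQR6 (0.68), LYSMD3 (0.67) and si:dkey-15g19.2 (0.67). Without the 2 libraries whose member mean lay farthest out, r ran from 0.42 (galk1) to 0.65 (NRP1) for the levels. For the deviations it then ran from 0.53 (LYSMD3) to 0.70 (MTFR1L). These are the highest of 11012 values and were not tested. All values in a library share its depth and its sorted cells.

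The wider pathway was read from lists of interferon genes sorted by role, chosen with earlier results of these data known. Of 136 listed genes measured, 134 were tested, and edgeR called 0 of them for imiquimod averaged over genotype and stress, beside 0.00502% of all genes tested. DESeq2 and limma voom called 0 of them as well. At an unadjusted p under 0.05 there were 10 higher and 2 lower, while 8.98% of all genes tested passed that threshold in either direction. The median log2 fold change was 0.18, with 95 of 134 above 0, beside a median of 0.06 and 57.3% above 0 over all genes tested. The 134 include the ligand genes and others near 0 counts.

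By role, the 6 ligand genes, which are interferon and interleukin-12 subunit genes, averaged 0.571 to 2.75 CPM and none was called. Fold changes are not given for counts this low. Mean levels were higher with imiquimod for 5 of them, while ifnphi3 averaged 0.890 CPM with imiquimod and 1.00 CPM with DMSO (n = 15 each). For each of the 6 the SD with imiquimod exceeded the difference between the means, a spread between libraries that is not a test of that difference. For il12bb, the highest, the means were 3.65 ± 4.29 CPM with imiquimod and 1.84 ± 3.86 CPM with DMSO (SD). The ligand genes had no count in 2 (ifng1) to 12 (il12a, il12ba) of the 30 libraries. By treatment, il12a had none in 2 imiquimod and 10 DMSO libraries, and il12ba none in 4 imiquimod and 8 DMSO libraries. In the same order these numbers were 1 and 1 for ifng1, 3 and 4 for ifnphi1, 4 and 5 for il12bb and 3 and 2 for ifnphi3. The 10 receptor and kinase genes had a median of 0.09, the 13 regulatory factors outside the members 0.17, the 20 nucleic acid sensors and adaptors 0.08 and the 18 feedback inhibitors 0.10. These lists are broader than their names. That of regulatory factors also holds the IRF2-binding protein genes IRF2BPL, IRF2BP1 and IRF2BP2, and that of feedback inhibitors holds STAT3. For 36 tested effectors outside the members the median was 0.28 with 26 above 0, and for 32 interferon-gamma targets and antigen processing genes it was 0.25 with 23 above 0. The smallest p belonged to UNC93B1, which escorts nucleic-acid-sensing toll-like receptors to endosomes. Its level was 27.6 ± 9.18 CPM with imiquimod and 16.5 ± 6.98 CPM with DMSO (SD, n = 15 each), a log2 fold change of 0.70 ± 0.21 (edgeR adjusted p = 0.28).

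IKBKE, a kinase of interferon regulatory factors, had 33.05 ± 11.76 CPM with imiquimod and 20.4 ± 9.07 CPM with DMSO (SD, n = 15 each; log2 fold change 0.69 ± 0.22, edgeR adjusted p = 0.30). The next genes by p were at low levels. socs1b, a feedback inhibitor of JAK signalling, averaged 1.42 CPM with imiquimod and 0.208 CPM with DMSO, the chemokine gene cxcl11.6 1.05 CPM with imiquimod and 0.373 CPM with DMSO, and ifit8, of a family of interferon-induced RNA-binding proteins, 0.934 CPM with imiquimod and 0.825 CPM with DMSO. edgeR called none of the 3 (adjusted p = 0.30, 0.42 and 0.43). The SD of ifit8 was 0.712 CPM with imiquimod and 2.03 CPM with DMSO, and its highest value in any library was 7.68 CPM. No ifit8 count was found in 3 imiquimod and 9 DMSO libraries (n = 15 each).

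**Figure D5:**
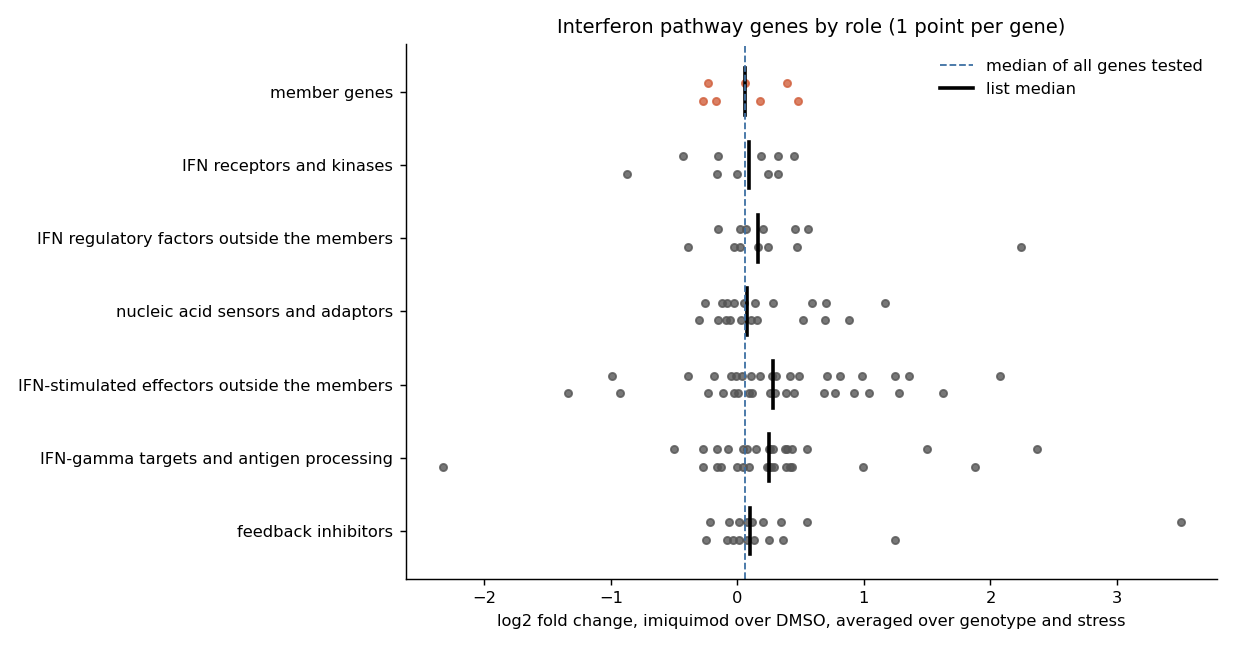
Log2 fold change of imiquimod over DMSO averaged over genotype and stress (x axis) for each tested gene of the members and of the interferon lists by role other than the ligands (rows), 1 point per gene, with the list median (black line) and the median of all genes tested (dashed line). The medians run from 0.06 for the members to 0.28 for the effectors outside them, and none of the points has an edgeR adjusted p under 0.05.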

How the data were processed

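Zebrafish GFP-low cells were profiled by Smart-seq2 RNA-seq in 30 libraries of 8 groups. The authors deposited whole-number counts per gene, not normalized, for 20631 genes. The submitters' processing notes name HISAT2 2.1.0, featureCounts (Subread 2.0.0), Trimmomatic 0.39, SAMtools 1.9, FastQC 0.11.9, DESeq2 and the build GRCz11. Annotation release and strandedness are not given in the sources used here, so reads of overlapping antisense genes cannot be told apart. Without molecular identifiers, counts are reads and not molecules.

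The members and lists were chosen with earlier results of these data known. Counts were tested with edgeR 4.0.16 in R 4.3.3 (TMM, factors 0.896 to 1.07; filterByExpr by group; robust quasi-likelihood test, 1 coefficient per group). There were 17 contrasts, and 2 were added after the data were seen. Benjamini-Hochberg adjustment ran over the 19930 genes tested in a contrast, with a threshold of 0.05. The common dispersion was 0.674. CPM were computed from the counts and library totals. Standard errors come from the F statistic. Fits were tested on simulated data.

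Alternatives were RLE factors, no filter, DESeq2 1.42.0, limma 3.58.1 voom, the replicate number as a block, S1 to S6 as a term or left out, and each library left out. Of 10 rows found by the member symbols, 2 are not reported here; the other members were named, RPS14 and TLR7 were always examined, and of the lists the 5 of smallest p were named since none was called. rnf213b and the marker genes were named after their values were seen. The 8 genes most like the members' mean were named. No 2 libraries of a group agreed within sampling noise (chi-square per degree of freedom 18.7 to 72.6). Sequences and gene positions were not used here.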

Additional observations from a re-analysis of the deposited data

Results flagged for a closer look

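Some members had 1 library far from the rest of its group. Of 39 groups of 4 or 5 libraries examined over the 8 members, 6 held a library whose gap to the nearest other exceeded Dixon's 95% critical value. The nominal rate of about 1 in 20 groups does not hold for counts near 0, so the 6 are not compared with it. isg15 was at 16.3 CPM in wild-type Phz imiquimod replicate 2, where the next library had 5.02 CPM. IRF7 was at 73.8 CPM in rps14+/- unstressed DMSO replicate 3, where the next had 29.4 CPM. The remaining 4 were libraries with counts in groups otherwise at 0, where any count at all exceeds the critical value. These were RSAD2 at 1.38 CPM in wild-type unstressed imiquimod replicate 2 and at 0.752 CPM in wild-type Phz imiquimod replicate 1, and mxa at 0.171 CPM in wild-type unstressed imiquimod replicate 1 and at 0.636 CPM in rps14+/- Phz DMSO replicate 4.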

How the results depend on the processing

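Across 37 alternatives, 24 log2 fold changes of 6 members gave 888 values, of which 864 kept direction and call, 1 gained a call and 23 turned sign, spread over 6 fold changes. None of the 24 was called in the main fit, so keeping a call meant staying uncalled. Most alternatives left out 1 library, which for comparisons within a condition was often in neither group. The share that kept direction is therefore not a measure of robustness. DESeq2 called 1 member in Phz cells averaged over genotype, RNF213 at 0.98. The whole-table count for imiquimod averaged over genotype and stress, 1 gene, was 54 with DESeq2, 5 with limma voom, 2 with the replicate block and 2 without S1 to S6, and 0 to 5 without single libraries (0 without rps14+/- unstressed imiquimod replicate 3, 5 without rps14+/- unstressed DMSO replicate 3, 3 without wild-type Phz imiquimod replicate 2). For imiquimod averaged over all conditions, signs turned for isg15 (voom 0.72, block 0.20, without S1 to S6 1.01, single libraries −0.44 to 0.63), stat2 (without S1 to S6 −0.13, single libraries −0.015 to 0.17) and IRF7 (voom 0.093, single libraries −0.34 to 0.34). In Phz cells IRF7 gave 0.36 with voom, 0.082 with the S1 to S6 term, 0.097 without S1 to S6 and −0.37 to 0.94 without single libraries. irf9 turned in Phz rps14+/- cells (block −0.16, S1 to S6 term −0.14, single libraries −0.20 to 0.14) and unstressed wild-type cells (−0.65 to 0.022). The causes were not tested. The labels do not say what a shared replicate number means, and all of S1 to S6 are replicate 1. Over 94 same-number pairs of libraries the median correlation of deviations was 0.016 and 8 exceeded 0.1. Over 298 other-number pairs the median was −0.0099, and 10 of 30 libraries correlated best with their own number. The counts of 8 and 10 were not set against a chance share, so they do not tell whether a number marks a shared pool. The block changed no call of a member. Groups of 3 to 5 libraries and the dispersion of 0.674 limit what these tests can detect, and members near 0 counts carry no usable fold change.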
